A study of Mus musculus with 21 samples.

Results

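Lysosome genes were followed in the regenerating hearts of newborn mice that received isoproterenol or 1 of 5 anti-arrhythmic drugs, of which amiodarone and propranolol are cationic amphiphilic drugs. The set held 34 of the 18762 genes in the deposited table, picked by gene symbol: lysosomal proteases, glycosidases, lipid-handling enzymes and their cofactors, membrane proteins, the transcription factor gene Tfeb and the progranulin gene Grn. All 34 passed the filter on low values and were among the 12433 genes tested. The rule that chose them uses gene names and no measured value, but the list was made with earlier results of these data known.

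All animals were neonatal ICR mice, an outbred strain, whose ventricular apex had been cut off at an age of 1 day, so the control group carried this injury as well. RNA came from the apex of the heart at postnatal day 7, with 3 libraries in each of 7 groups, 21 in all. The control group is labelled with apical resection alone, and whether it was injected is not stated. The other groups received subcutaneous isoproterenol, amiodarone, metoprolol, propranolol, lidocaine or ivabradine, given over 7 days per the labels. Isoproterenol stimulates β-adrenergic receptors, metoprolol and propranolol block them, amiodarone blocks potassium and other channels, lidocaine blocks sodium channels, and ivabradine blocks the pacemaker current. Doses, vehicle and the number of animals behind a library are not in the labels, so the p-values below measure the spread between libraries, which may be technical, and drugs cannot be compared at matched doses.

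Lysosomes are acidic organelles in which proteases, glycosidases and lipases break down proteins, glycans and membrane lipids. Their genes share a promoter element, an E-box of the CLEAR type built on CACGTG, which is bound by TFEB and its relatives when the lysosome is stressed or nutrients are short. Cationic amphiphilic drugs are lipophilic amines that become protonated and trapped in the acidic lumen. They displace acid sphingomyelinase from inner lysosomal membranes, and amiodarone is known for phospholipid storage in lysosomes of several tissues. Metoprolol, lidocaine and ivabradine are amines too but are set here as the comparison drugs. The question put to the data was whether the lysosome genes stood higher with amiodarone and propranolol than with the other drugs.

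The E-box CACGTG was present in a part of the set, and the promoters of 6 genes that the results below return to are shown so that it can be seen where it lies. RefSeq promoters (GRCm38.p6, from 250 bases before to 50 bases after a transcription start) matched 30 of the 34 genes. CACGTG, which reads the same on both strands, was found in 8 of these 30 (26.7%), against 8.09% of 27025 genes searched the same way. They were Ctsa, Ctsd, Ctsf, Ctsl, Gla, Glb1, Lamp1 and Mcoln1. The longer TCACGTGA, also a palindrome and always holding the shorter one, was found in Ctsa, Ctsd, Gla and Mcoln1, 13.3% of the 30 against 1.12% of all genes. These are letter matches and not binding sites. The stretches run 5′ to 3′ from 150 bases before to 20 bases after the start, with CACGTG in capitals:
Ctsa (chr2:164833623-164833792, plus strand): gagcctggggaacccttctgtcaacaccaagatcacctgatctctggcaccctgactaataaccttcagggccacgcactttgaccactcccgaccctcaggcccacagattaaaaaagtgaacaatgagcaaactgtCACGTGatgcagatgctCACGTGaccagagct
Mcoln1 (chr8:3500369-3500538, plus strand): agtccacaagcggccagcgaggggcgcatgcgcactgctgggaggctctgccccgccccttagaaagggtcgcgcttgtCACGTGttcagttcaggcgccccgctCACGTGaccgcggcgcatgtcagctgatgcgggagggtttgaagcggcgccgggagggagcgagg
Ctsf (chr19:4855015-4855184, plus strand): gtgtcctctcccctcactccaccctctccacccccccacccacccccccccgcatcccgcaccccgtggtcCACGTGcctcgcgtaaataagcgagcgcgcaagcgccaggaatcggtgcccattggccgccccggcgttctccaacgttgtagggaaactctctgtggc
Lamp1 (chr8:13159011-13159180, plus strand): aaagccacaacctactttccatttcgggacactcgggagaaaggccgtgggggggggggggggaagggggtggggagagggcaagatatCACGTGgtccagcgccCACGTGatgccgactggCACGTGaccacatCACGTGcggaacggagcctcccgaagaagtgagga
Scarb2 (chr5:92505638-92505807, minus strand): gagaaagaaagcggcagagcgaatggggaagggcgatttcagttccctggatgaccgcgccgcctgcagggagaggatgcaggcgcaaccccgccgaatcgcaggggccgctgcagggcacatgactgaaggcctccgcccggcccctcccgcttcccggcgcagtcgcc
Smpd1 (chr7:105554210-105554379, plus strand): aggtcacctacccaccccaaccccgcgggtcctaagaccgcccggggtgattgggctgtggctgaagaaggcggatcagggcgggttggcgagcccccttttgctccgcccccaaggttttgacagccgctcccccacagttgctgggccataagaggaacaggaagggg

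Lamp1 held 4 copies of CACGTG, Ctsa and Mcoln1 held 2 each and Ctsf held 1. Scarb2 and Smpd1 had no match in their windows. Ctsa also has a second RefSeq start upstream, whose window held none. In amiodarone and propranolol against metoprolol, lidocaine and ivabradine, the 8 genes with CACGTG had a median log2 difference of -0.03 and the 22 genes without it a median of -0.06.

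The values are FPKM, fragments per kilobase of transcript per library size, so levels can be set beside each other between genes. Differences are between group means of log2(FPKM + 1), which understates the change of genes near 0, and are given ± SE. A gene is said to be higher or lower only with an adjusted p under 0.05 (limma, Benjamini-Hochberg over the 12433 tested genes of each comparison). Heart genes were high in every library (Myl2 from 12341 to 15723 FPKM). Some libraries carried transcripts of other tissues: amiodarone 2 had 222 FPKM of the lung gene Sftpc, which was also present in lidocaine 1 (9.10 FPKM), propranolol 1 had 10.8 FPKM of the liver gene Alb, isoproterenol 3 had 176 FPKM of Myl7, an atrial gene, and control 3 had 62.7 FPKM of Mylpf, a skeletal muscle gene that stood at 30.42 FPKM in amiodarone 3, 14.66 FPKM in control 2 and 0.83 to 11.6 FPKM in the others. A fit without control 3, isoproterenol 3, amiodarone 2 and propranolol 1 kept 21 of the 62 calls of single genes described below, and it leaves those groups with 2 libraries each. Amiodarone 3, control 2 and lidocaine 1 stayed in that fit. Losses in that fit are named below for some calls only, so a call without such a mention may have been lost there too. For every drug the median difference from control over all tested genes was below 0, at -0.08 to -0.10. Rescaling the libraries by the median of ratios moved these medians by 0.08 to 0.10 and moved the share of called genes that were higher than control from 24.5% to 30.2% up to 59.1% to 64.3%, so the counts of each gene group against control are given both ways where all libraries entered. In the comparisons between drug groups rescaling moved this median by 0.02 at most.

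The lysosome genes were expressed over a wide range. Psap, the precursor of the saposins that help degrade sphingolipids, averaged 421 FPKM over the 21 libraries, and the aspartic protease Ctsd averaged 373 FPKM. Ctsb, Cd63, Lamp1, Ctsl and Grn followed between 272 and 106 FPKM. The lowest were the cysteine protease Ctso at 4.59 FPKM and the α-galactosidase Gla at 1.98 FPKM. Summed over the set, the libraries ran from 2035 FPKM in lidocaine 2 to 2896 FPKM in control 3. The controls alone spanned 2145 to 2896 FPKM, and no drug library lay above control 3.

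No lysosome gene passed as higher with amiodarone and propranolol than with the other anti-arrhythmic drugs. In the comparison of their 6 libraries with the 9 libraries of metoprolol, lidocaine and ivabradine, 0 of 34 genes were higher and 1 was lower, against 0.467% higher and 0.523% lower among all tested genes. The counts were the same after rescaling, against 0.41% and 0.539%. At an unadjusted p under 0.05 there were 3, Scarb2, Mcoln1 and Idua, all of them lower. The median of the 34 differences was -0.05, against 0.00 over all tested genes, and 29 of the 34 were below 0. The share of all tested genes below 0 is not given. Propranolol alone against the 3 drugs had a median of -0.09 with 32 of 34 below 0. Amiodarone alone had a median of -0.02 with 22 of 34 below 0. For amiodarone and propranolol together, the 95% intervals show how large a rise could have been missed. Their upper bounds were under 0.25 for 32 of the 34 genes and under 0.5 for all 34, and the 2 exceptions to the lower figure were the cysteine proteases Ctsc and Ctsk. Ctsk had the widest interval, from -1.20 to 0.32.

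**Figure D1:**
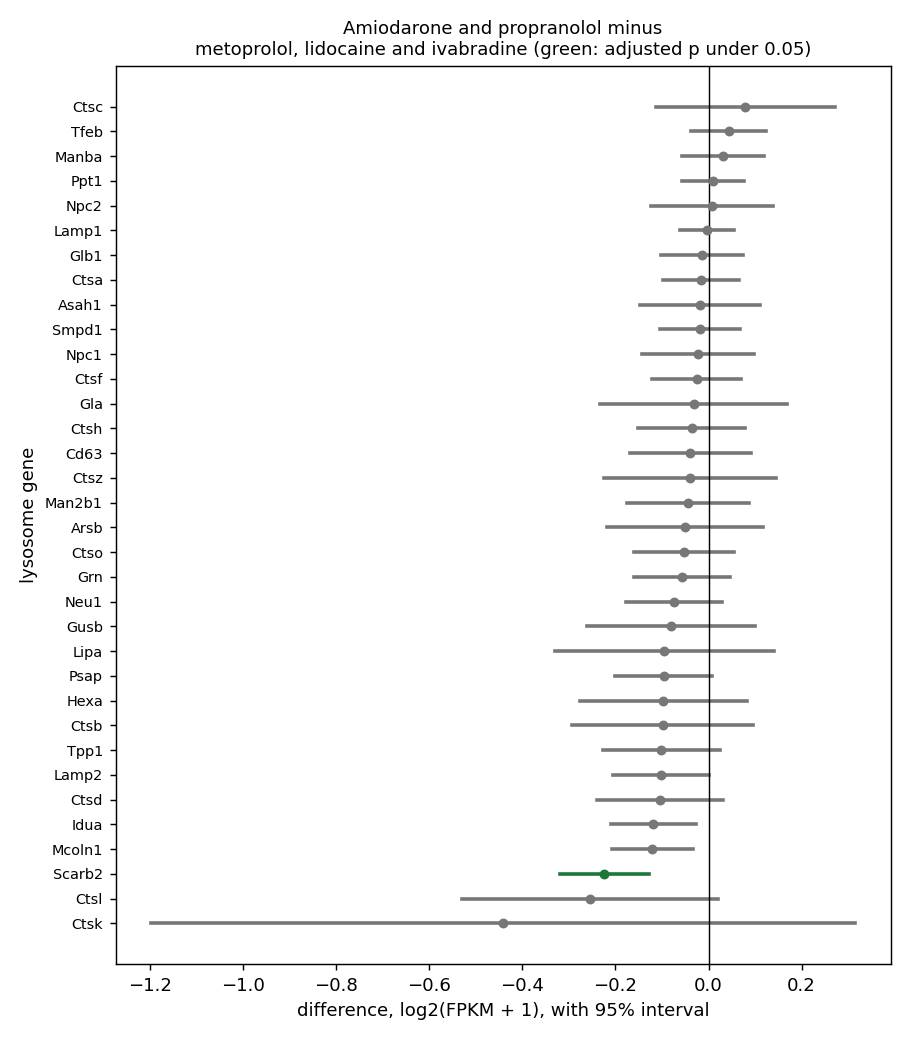
Difference of each of the 34 lysosome genes between amiodarone and propranolol and the 3 other anti-arrhythmic drugs, on the x axis as log2(FPKM + 1), with points for the estimate and bars for the 95% interval. Of the 34 points 29 lie left of 0, Scarb2 (green) alone passed the test, and Ctsk has the widest bar.

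The 1 gene called, as lower, was Scarb2 (Entrez 12492), which encodes LIMP-2, the membrane protein that carries β-glucocerebrosidase to lysosomes. Amiodarone libraries held 29.19, 33.45 and 30.84 FPKM and propranolol libraries 29.38, 32.01 and 28.38 FPKM. Lidocaine libraries held 39.51, 37.91 and 36.65 FPKM, ivabradine libraries 34.92, 37.69 and 37.28 FPKM, and metoprolol libraries 32.41, 30.49 and 36.01 FPKM. The lidocaine and ivabradine libraries lay above all 6 amiodarone and propranolol libraries, while the metoprolol libraries overlapped them. The difference was -0.22 ± 0.05 (95% interval -0.32 to -0.13, limma adjusted p = 0.017) and the same after rescaling. Controls held 26.18, 30.47 and 28.34 FPKM and isoproterenol libraries 27.88, 31.03 and 29.35 FPKM. Control 1, control 3 and isoproterenol 1 lay below all 6 amiodarone and propranolol libraries, and the other control and isoproterenol libraries lay within their range. Against control, Scarb2 was higher with lidocaine (0.41 ± 0.07, adjusted p = 0.00032), ivabradine (0.36 ± 0.07, adjusted p = 0.0014) and metoprolol (0.21 ± 0.07, adjusted p = 0.029), and the estimates for amiodarone and propranolol were 0.13 and 0.08 without passing. After rescaling amiodarone passed too (0.22, adjusted p = 0.025) and propranolol did not (0.18, adjusted p = 0.059). The metoprolol call was lost without control 1, control 3, metoprolol 1 or metoprolol 3 (adjusted p of 0.061 to 0.15). It was also lost without the 4 libraries carrying other tissues (0.078).

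Scarb2 was also the 1 of 34 genes that differed among the 5 anti-arrhythmic groups in the F test (adjusted p = 0.046; 1.06% of all tested genes did). That call was lost with no filter, with no variance trend, and in 13 of the 21 fits that left out 1 library: control 3, isoproterenol 2 or 3, amiodarone 1 or 3, metoprolol 1, propranolol 1 or 3, any lidocaine library, and ivabradine 2 or 3. The difference between the drug sets was no longer called without amiodarone 1 (adjusted p = 0.081), propranolol 1 (0.056) or propranolol 3 (0.067), or without the 4 libraries carrying other tissues (0.089). With isoproterenol added to the comparison drugs, 0 of 34 genes passed and Scarb2 had an adjusted p of 0.091, where 0.475% of all tested genes were higher and 0.499% lower (0.37% and 0.491% after rescaling, with 0 of 34 again), and 4 of 34 had an unadjusted p under 0.05. Amiodarone alone against the 3 drugs gave 0 of 34 (2 at an unadjusted p under 0.05; 0.209% and 0.201% of all tested genes were higher and lower). Propranolol alone gave Scarb2 as lower (-0.25 ± 0.06, adjusted p = 0.048; 0.257% and 0.434% of all).

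The test of amiodarone against propranolol called 0 of 34 genes (limma; 1 at an unadjusted p under 0.05, the tripeptidyl peptidase gene Tpp1), where 0.0885% of all tested genes were higher with amiodarone and 0.0241% lower. After rescaling 0 of 34 passed again (0.0965% and 0.0161% of all). Upper bounds of the 95% intervals reached 0.25 or more for 19 genes, so differences of that size between these drugs could have been missed. Propranolol and metoprolol, both aryloxypropanolamine β-blockers, differ in that propranolol carries a naphthalene ring and metoprolol a benzene ring with a methoxyethyl group, which makes propranolol the more lipophilic. Between them 0 of 34 genes passed (6 at an unadjusted p under 0.05), where 0.0241% of all tested genes were higher and 0.0241% lower with propranolol, and after rescaling 0 passed again (0.0322% and 0.0161% of all). The smallest p belonged to Idua (Entrez 15932), the α-L-iduronidase of glycosaminoglycan breakdown, at -0.23 (95% interval -0.38 to -0.09, adjusted p = 0.26) with the 3 propranolol libraries below the 3 metoprolol libraries. Tfeb was the only one of the 6 with an estimate above 0, at 0.14 (95% interval 0.02 to 0.27, adjusted p = 0.43). For 29 of the 34 genes the upper bound was under 0.25.

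Against control, all 6 drugs gave more lower than higher lysosome genes as deposited, and for amiodarone, metoprolol, lidocaine and ivabradine the balance turned after rescaling. Isoproterenol gave 2 higher and 11 lower of 34, against 8.38% and 25.8% of all tested genes. Amiodarone gave 1 and 6, against 8.47% and 20.6%. Propranolol gave 1 and 11, against 6.98% and 19.8%. Metoprolol gave 2 and 4 (9.48% and 22% of all genes), lidocaine 3 and 9 (10.6% and 26.6%), and ivabradine 2 and 3 (7.91% and 19.1%). After rescaling the counts of higher and lower genes were 6 and 7 with isoproterenol (17.3% and 12% of all tested genes), 5 and 1 with amiodarone (15% and 8.31%) and 2 and 5 with propranolol (14.5% and 8.9%). They were 4 and 2 with metoprolol (16.2% and 9.38%), 4 and 3 with lidocaine (18.9% and 12.8%), and 3 and 1 with ivabradine (14.6% and 9.78%). The medians over the 34 genes were -0.15, -0.15, -0.22, -0.12, -0.18 and -0.12 in the same order, and -0.05, -0.06, -0.13, -0.04, -0.08 and -0.03 after rescaling. All 6 comparisons share the 3 control libraries, so they are not independent of each other. In whole tissue, fewer cells of a type and less RNA per cell cannot be told apart.

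**Figure D2:**
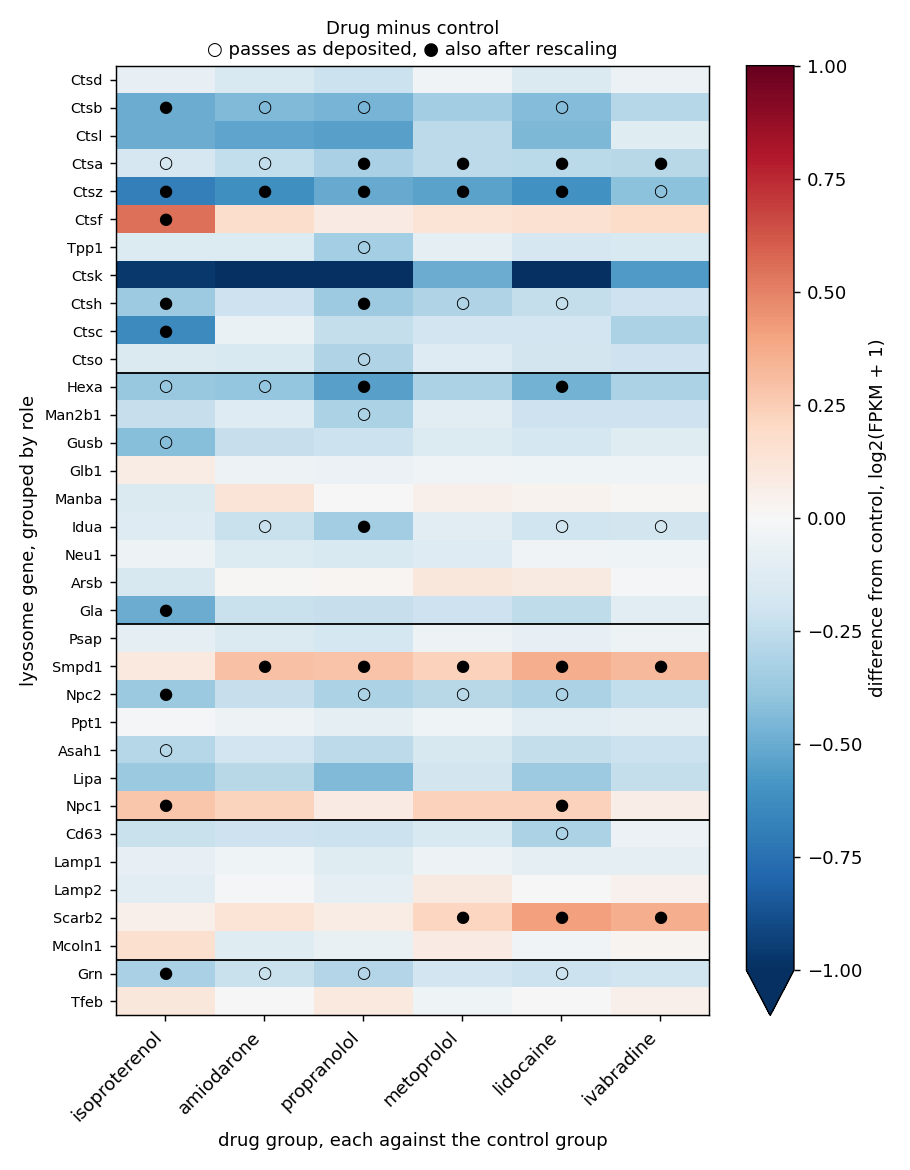
Differences of the 34 lysosome genes (rows, grouped by role between the lines) from control for each of the 6 drugs (columns), as log2(FPKM + 1), with colours clipped at 1 in either direction. Open circles mark genes that passed the test as deposited and filled circles those that passed the same way after rescaling too. Smpd1 has a circle in 5 columns and Ctsa in all 6.

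These counts rested on the controls, of which control 1 stood apart from the other two. Without control 1 the lower genes numbered 17 with isoproterenol, 13 with amiodarone, 20 with propranolol, 9 with metoprolol, 17 with lidocaine and 11 with ivabradine. Without control 2 they numbered 5, 3, 7, 3, 3 and 1, and without control 3 they numbered 5, 2, 6, 3, 2 and 1, in the same order. Shares of all tested genes are not given for these fits, so the swing cannot be read as particular to lysosome genes. Of 62 calls of single genes in the 10 comparisons, 15 held in all 27 alternative settings. Among those against control these were Smpd1 with every anti-arrhythmic drug but metoprolol, Ctsa with metoprolol, propranolol, lidocaine and ivabradine, Scarb2 with lidocaine and ivabradine, Ctsz with lidocaine, Idua with propranolol, and Ctsf and Ctsc with isoproterenol.

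The F test of all 7 groups called 10 of 34 lysosome genes, or 29.4%, against 39.9% of all tested genes. In order of p they were Ctsf, Scarb2, Smpd1, Ctsa, Ctsz, Idua, Mcoln1, Ctsh, Ctsc and Grn. After rescaling 10 of 34 passed again, against 35.9% of all tested genes. The count was 17 without control 1 and 6 without control 2, in fits for which the share of all tested genes is not given.

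**Figure D3:**
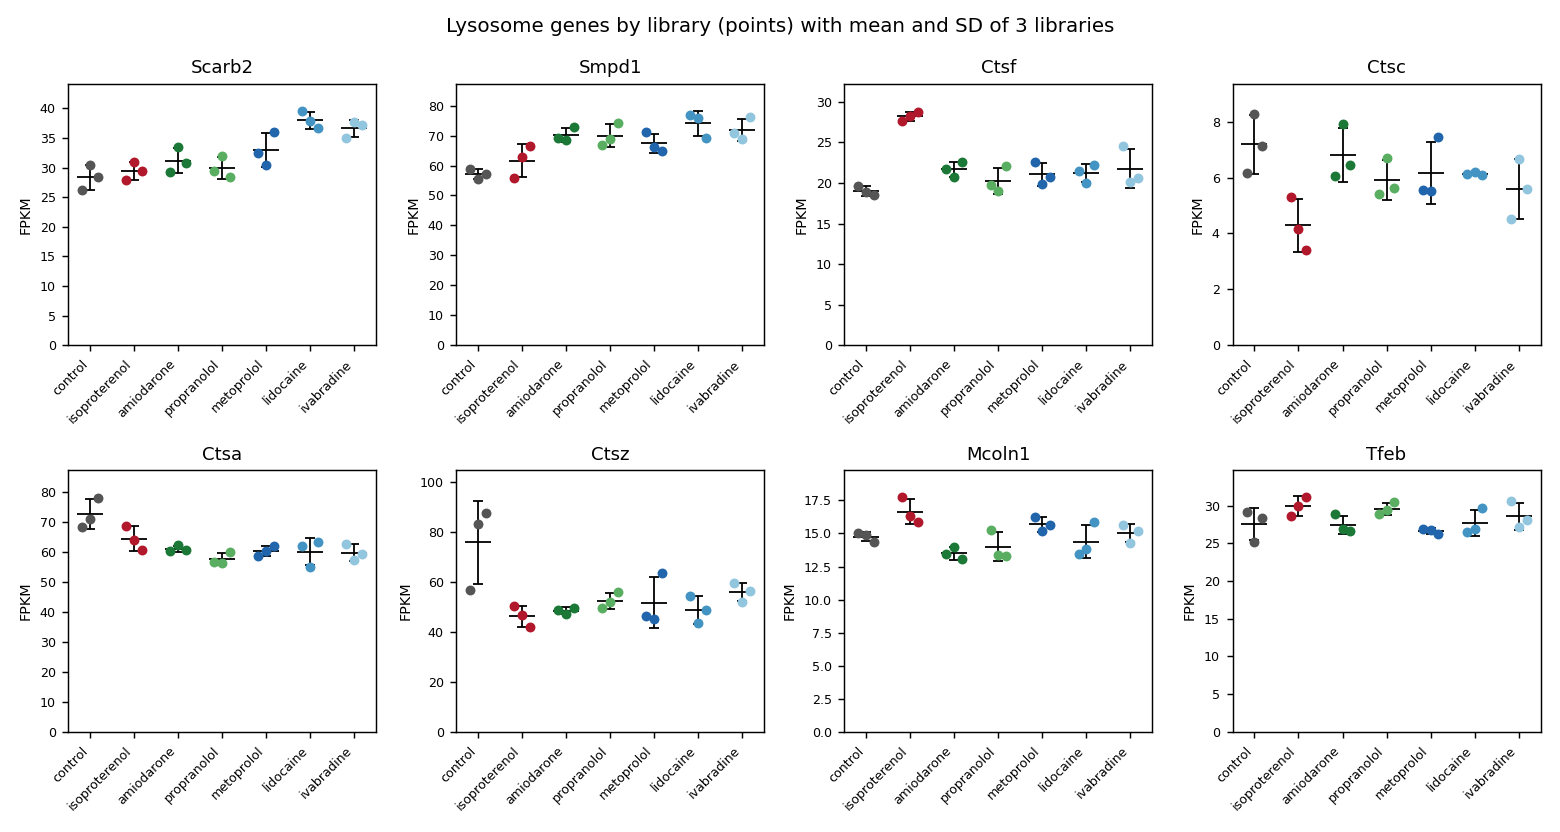
FPKM (y axis, from 0) of 8 lysosome genes in each of the 21 libraries, with points for libraries and bars for the mean and SD of 3. Smpd1 is above the controls in all 15 anti-arrhythmic libraries, Ctsf is high in the 3 isoproterenol libraries alone, and Tfeb stays between 25.2 and 31.2 FPKM.

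Among the lipid-handling genes, Smpd1 (Entrez 20597), which encodes the acid sphingomyelinase that splits sphingomyelin into ceramide, was higher with all 5 anti-arrhythmic drugs. Controls held 58.96, 55.63 and 57.18 FPKM. Amiodarone libraries held 69.31, 68.70 and 72.95 FPKM, and propranolol libraries 66.72, 69.03 and 74.18 FPKM. Metoprolol libraries held 71.13, 66.05 and 65.01 FPKM, lidocaine libraries 77.00, 75.99 and 69.22 FPKM, and ivabradine libraries 70.80, 68.85 and 76.14 FPKM. All 15 of these libraries lay above all 3 controls. The differences from control were 0.29 ± 0.06 with amiodarone (adjusted p = 0.0036), 0.28 with propranolol (0.0042), 0.23 with metoprolol (0.012), 0.36 with lidocaine (0.00043) and 0.32 with ivabradine (0.0016), and rescaling raised each of them, to between 0.32 and 0.47. Isoproterenol libraries overlapped the controls at 55.68, 62.79 and 66.38 FPKM (0.10, not passing; 0.22 and adjusted p = 0.033 after rescaling) and stood below the 5 anti-arrhythmic groups together (-0.20 ± 0.05, adjusted p = 0.0075). Between amiodarone and propranolol and the other anti-arrhythmic drugs the difference of Smpd1 was -0.02 (95% interval -0.10 to 0.07, adjusted p = 0.92). The metoprolol call was lost without metoprolol 1 (adjusted p = 0.064), and the difference of isoproterenol from the anti-arrhythmic drugs without isoproterenol 1 (0.10).

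Among the other lipid genes, Npc2, the soluble cholesterol carrier of the lysosome lumen, was lower with isoproterenol (-0.37 ± 0.10), propranolol (-0.32), lidocaine (-0.32) and metoprolol (-0.28), of which only the isoproterenol call remained after rescaling. The other Npc2 calls were also lost without control 2 or control 3, without propranolol 2 or 3, metoprolol 1 or 2, or lidocaine 2 in their own comparison (adjusted p of 0.051 to 0.13). Without the 4 libraries carrying other tissues the isoproterenol call of Npc2 was lost too (adjusted p = 0.17). Npc1, its partner in the lysosomal membrane, was higher with isoproterenol (0.27 ± 0.09, adjusted p = 0.023) and lidocaine (0.23, adjusted p = 0.047). With amiodarone it stood at 0.22 (adjusted p = 0.064) and with metoprolol at 0.23 (0.054) as deposited, and both passed after rescaling (0.31 and 0.32). The isoproterenol call of Npc1 was lost without control 1, control 2, isoproterenol 1 or isoproterenol 3 (adjusted p of 0.068 to 0.086), and the lidocaine call in 14 of 27 settings. The acid ceramidase Asah1 was lower with isoproterenol alone among the calls (-0.28, adjusted p = 0.029), a call lost after rescaling and without control 2, control 3, isoproterenol 2 or isoproterenol 3 (0.083 to 0.15). This Asah1 call was also lost without the 4 libraries carrying other tissues (0.24). The acid lipase Lipa, the palmitoyl thioesterase Ppt1 and Psap passed in none of the 6 comparisons with control.

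Of the 11 proteases, 5 were lower with isoproterenol, 3 with amiodarone, 6 with propranolol, 3 with metoprolol, 4 with lidocaine and 2 with ivabradine, and 1 was higher, with isoproterenol. As shares of the 11 the lower genes made up 45.5%, 27.3%, 54.5%, 27.3%, 36.4% and 18.2% in that order, against 25.8%, 20.6%, 19.8%, 22%, 26.6% and 19.1% of all tested genes. After rescaling 4, 1, 3, 2, 2 and 1 were lower, against 12%, 8.31%, 8.9%, 9.38%, 12.8% and 9.78% of all. Each drug but propranolol then had 1 higher, against 14.6% to 18.9% of all. Ctsa (Entrez 19025), the carboxypeptidase that also protects β-galactosidase and neuraminidase, was lower with all 6 drugs. Controls held 68.54, 71.24 and 78.25 FPKM, isoproterenol libraries 68.81, 64.25 and 60.61 FPKM, amiodarone libraries 60.52, 62.34 and 60.67 FPKM, and propranolol libraries 56.85, 56.38 and 60.01 FPKM. Metoprolol libraries held 58.84, 60.32 and 62.01 FPKM, lidocaine libraries 62.11, 55.05 and 63.31 FPKM, and ivabradine libraries 62.83, 57.42 and 59.38 FPKM. All 15 anti-arrhythmic libraries lay below the controls, and 1 isoproterenol library overlapped them. The differences ran from -0.17 with isoproterenol to -0.33 with propranolol (adjusted p = 0.039 and 0.0013), and the other drugs lay between -0.24 and -0.27. After rescaling the isoproterenol and amiodarone calls were lost (adjusted p = 0.53 and 0.052). The isoproterenol call was also lost without control 2 or 3, or isoproterenol 2 or 3 (adjusted p of 0.064 to 0.19). Without the 4 libraries carrying other tissues the isoproterenol and amiodarone calls were lost too (adjusted p = 0.53 and 0.08).

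Ctsz (Entrez 64138), a carboxypeptidase of the cathepsin family, was lower with all 6 drugs as well, by 0.41 to 0.68. Controls held 56.84, 83.10 and 87.52 FPKM. Isoproterenol libraries held 50.24, 46.66 and 41.88 FPKM, amiodarone libraries 48.57, 46.99 and 49.67 FPKM, and propranolol libraries 49.29, 51.71 and 55.73 FPKM. Metoprolol libraries held 46.36, 45.13 and 63.29 FPKM, lidocaine libraries 54.37, 43.29 and 48.64 FPKM, and ivabradine libraries 59.29, 51.99 and 56.29 FPKM. Only metoprolol and ivabradine had a library above control 1, the lowest control. The differences were -0.68 ± 0.14 with isoproterenol (adjusted p = 0.0012), -0.61 with amiodarone (0.004), -0.61 with lidocaine (0.0026), -0.54 with metoprolol (0.0075) and -0.51 with propranolol (0.012). The ivabradine call (-0.41) was lost after rescaling (adjusted p = 0.081), and those of ivabradine and propranolol without control 2 or control 3 (adjusted p of 0.06 to 0.16), and that of ivabradine also without ivabradine 2 or 3 (0.11 and 0.072). Without the 4 libraries carrying other tissues only the lidocaine call remained (adjusted p of 0.056 to 0.19 with the other drugs).

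Ctsf (Entrez 56464), a cysteine protease, was the one protease that rose, with isoproterenol. Isoproterenol libraries held 27.69, 28.26 and 28.80 FPKM against 19.65, 18.85 and 18.55 FPKM in controls. Amiodarone libraries held 21.68, 20.73 and 22.58 FPKM, propranolol libraries 19.77, 18.97 and 22.08 FPKM, metoprolol libraries 22.62, 19.92 and 20.69 FPKM, lidocaine libraries 21.46, 20.05 and 22.25 FPKM, and ivabradine libraries 24.53, 20.13 and 20.66 FPKM. All 3 isoproterenol libraries lay above the other 18. The difference was 0.55 ± 0.07 from control (adjusted p = 3.7e-05) and 0.40 ± 0.05 from the 5 anti-arrhythmic groups (adjusted p = 7.5e-05), and both held in all 27 alternative settings. With the anti-arrhythmic drugs the estimates against control were 0.09 to 0.18 as deposited and did not pass. After rescaling those of amiodarone, metoprolol, lidocaine and ivabradine passed (0.23 to 0.27) and that of propranolol did not (0.19, adjusted p = 0.085).

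Ctsh (Entrez 13036), an aminopeptidase and endopeptidase, was lower with isoproterenol (-0.36 ± 0.09), propranolol (-0.37), metoprolol (-0.30) and lidocaine (-0.24). Controls held 20.01, 21.57 and 21.64 FPKM, above all 18 drug libraries. Isoproterenol libraries held 15.82, 16.43 and 16.29 FPKM and propranolol libraries 15.44, 15.87 and 17.09 FPKM. Amiodarone libraries held 16.33, 18.46 and 19.72 FPKM, metoprolol libraries 18.14, 14.48 and 18.32 FPKM, lidocaine libraries 17.47, 15.90 and 19.79 FPKM, and ivabradine libraries 18.73, 18.05 and 17.56 FPKM. The isoproterenol and propranolol calls remained after rescaling and in each fit without 1 library. Both were lost without the 4 libraries carrying other tissues (adjusted p = 0.055 and 0.087). The metoprolol call was lost after rescaling (adjusted p = 0.068) and without metoprolol 2 (0.073), and the lidocaine call after rescaling (0.22) and without control 2, control 3, lidocaine 1 or lidocaine 2 (0.075 to 0.17).

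Among the remaining proteases, Ctsc, the dipeptidyl peptidase that activates granule proteases of immune cells, was lower with isoproterenol (-0.64 ± 0.14 from control, adjusted p = 0.0025) and lower than in the 5 anti-arrhythmic groups (-0.44 ± 0.11, adjusted p = 0.0078). The second of these calls was lost without isoproterenol 3 (adjusted p = 0.10) and without the 4 libraries carrying other tissues (0.13). Ctsb was lower with isoproterenol, amiodarone, propranolol and lidocaine (-0.43 to -0.50), Tpp1 with propranolol (-0.34) and Ctso with propranolol (-0.30). Without control 2 or control 3 the 4 calls of Ctsb were lost (adjusted p of 0.072 to 0.14), and rescaling kept that of isoproterenol alone. In their own comparisons, leaving out lidocaine 2, lidocaine 3, propranolol 1, propranolol 2, amiodarone 1 or amiodarone 2 ended the other 3 calls as well (0.066 to 0.10). All 4 calls of Ctsb were lost without the 4 libraries carrying other tissues (0.17 to 0.28). Tpp1 and Ctso lost their calls after rescaling (both adjusted p = 0.052), Tpp1 also without control 3 (0.052) or propranolol 1 (0.051), and Ctso without propranolol 3 (0.058). Ctsd, Ctsl and Ctsk passed in none of the comparisons, although Ctsk had differences as large as -1.14 with amiodarone.

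Of the 9 glycosidases, the sulfatase Arsb included, 3 were lower with isoproterenol, 2 with amiodarone, 3 with propranolol, 0 with metoprolol (1 at an unadjusted p under 0.05), 2 with lidocaine and 1 with ivabradine, and none was higher with any drug. The shares of the 9 that were lower were 33.3%, 22.2%, 33.3%, 0%, 22.2% and 11.1% in that order, against 25.8%, 20.6%, 19.8%, 22%, 26.6% and 19.1% of all tested genes. After rescaling the lower genes numbered 1, 0, 2, 0, 1 and 0, and Manba with amiodarone and Glb1 with isoproterenol passed as higher (0.21 and 0.18). Of all tested genes 8.31% to 12.8% were then lower, and 15% were higher with amiodarone and 17.3% with isoproterenol. Idua was the one whose call with propranolol held in all 27 settings. Controls held 9.06, 8.23 and 8.67 FPKM and propranolol libraries 6.60, 6.82 and 6.39 FPKM. Amiodarone libraries held 6.50, 7.56 and 7.83 FPKM, lidocaine libraries 6.96, 7.46 and 7.84 FPKM, and ivabradine libraries 7.29, 7.73 and 7.45 FPKM. Metoprolol libraries held 7.77, 7.74 and 8.32 FPKM and isoproterenol libraries 8.58, 7.52 and 7.38 FPKM, both overlapping the controls. The difference with propranolol was -0.34 ± 0.07 (adjusted p = 0.0018) and with amiodarone -0.22 ± 0.07 (adjusted p = 0.022). The amiodarone call was lost after rescaling (adjusted p = 0.11) and without control 1, control 3 or amiodarone 1 (0.053 to 0.12), the lidocaine call (-0.20) after rescaling and without control 1, control 3, lidocaine 1 or lidocaine 2 (0.062 to 0.11), and the ivabradine call (-0.18) in 22 of 27 settings.

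Hexa, the α-subunit of β-hexosaminidase, was lower with propranolol (-0.54 ± 0.13), lidocaine (-0.47), amiodarone (-0.39) and isoproterenol (-0.38). After rescaling the amiodarone and isoproterenol calls were lost (adjusted p = 0.088 and 0.13), and without control 2 or 3 those of amiodarone, isoproterenol and lidocaine (0.055 to 0.16). They were also lost without amiodarone 1 or 2, isoproterenol 2 or 3, or lidocaine 2 in their own comparison (0.07 to 0.15). All 4 calls of Hexa were lost without the 4 libraries carrying other tissues (adjusted p of 0.073 to 0.41, with propranolol at 0.12). Those of isoproterenol and amiodarone were also lost with no filter (0.06 and 0.061). Gla and Gusb, the β-glucuronidase, were lower with isoproterenol (-0.50 and -0.42), and both calls were lost without control 2, control 3 or isoproterenol 3 (0.054 to 0.13), that of Gusb also after rescaling (-0.31, adjusted p = 0.073). Both calls were also lost without the 4 libraries carrying other tissues (0.27 and 0.33). Man2b1, an α-mannosidase, was lower with propranolol (-0.31), a call lost after rescaling (adjusted p = 0.098) and without control 2, control 3, propranolol 1 or propranolol 2 (0.07 to 0.13). This Man2b1 call was also lost without the 4 libraries carrying other tissues (0.24). Manba, the β-mannosidase, was lower with isoproterenol than with the 5 anti-arrhythmic drugs (-0.19 ± 0.05, adjusted p = 0.011, lost without isoproterenol 2 or 3 at 0.06 and 0.086). Without the 4 libraries carrying other tissues this Manba call was lost too (0.14). Glb1, Neu1 and Arsb passed in none of the comparisons with control as deposited.

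Of the 5 membrane proteins, 1 was lower with lidocaine (26.6% of all tested genes were) and 0 with each other drug (19.1% to 25.8% of all), and 1, Scarb2, was higher with metoprolol, lidocaine and ivabradine (9.48%, 10.6% and 7.91% of all). At an unadjusted p under 0.05 there were 1 or 2 with each drug. After rescaling none was lower, and 1 was higher with each drug but propranolol: Mcoln1 with isoproterenol and Scarb2 with the other 4. Of all tested genes 8.31% to 12.8% were then lower and 14.5% to 18.9% higher. Lamp1 and Lamp2, the glycoproteins that line the lysosomal membrane, passed in none of the comparisons, and Cd63 was lower with lidocaine alone (-0.31 ± 0.10, lost after rescaling at adjusted p = 0.091 and without control 2, control 3 or lidocaine 2 at 0.061 to 0.097). Lamp1 varied little, from 152.52 to 177.78 FPKM over the 21 libraries, and its promoter window held 4 copies of CACGTG and 0 of TCACGTGA. Mcoln1 (Entrez 94178), the calcium channel TRPML1 whose opening activates TFEB, held 15.05, 14.85 and 14.37 FPKM in controls. Isoproterenol libraries held 17.73, 16.32 and 15.89 FPKM, above the controls (0.16 ± 0.06, adjusted p = 0.058; 0.27 and 0.0032 after rescaling). Amiodarone libraries held 13.45, 13.97 and 13.05 FPKM and propranolol libraries 15.27, 13.39 and 13.31 FPKM. Metoprolol libraries held 16.27, 15.16 and 15.61 FPKM, lidocaine libraries 13.46, 13.86 and 15.85 FPKM, and ivabradine libraries 15.64, 14.25 and 15.20 FPKM. All 3 amiodarone libraries lay below the controls, but no anti-arrhythmic drug passed against control. Isoproterenol stood above the 5 anti-arrhythmic groups (0.19 ± 0.05, adjusted p = 0.011, lost without isoproterenol 1 at 0.098), and amiodarone and propranolol stood at -0.12 against the other 3 drugs (95% interval -0.21 to -0.03, adjusted p = 0.21).

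Tfeb (Entrez 21425), the transcription factor that drives the CLEAR network, passed in none of the comparisons as deposited. Controls held 29.15, 25.22 and 28.35 FPKM, amiodarone libraries 28.85, 26.91 and 26.66 FPKM, and propranolol libraries 28.85, 29.41 and 30.44 FPKM. Isoproterenol libraries held 28.59, 29.96 and 31.19 FPKM, metoprolol libraries 26.93, 26.81 and 26.20 FPKM, lidocaine libraries 26.55, 26.89 and 29.66 FPKM, and ivabradine libraries 30.58, 27.14 and 28.08 FPKM. All drug groups overlapped the controls. After rescaling isoproterenol and propranolol passed as higher (0.23, adjusted p = 0.015, and 0.20, adjusted p = 0.036). Messenger RNA does not report on TFEB's activity, which is set by phosphorylation and entry into the nucleus. Grn, whose product progranulin is processed into granulins in lysosomes, was lower with isoproterenol (-0.32 ± 0.08), propranolol (-0.29), amiodarone (-0.23) and lidocaine (-0.22), and only the isoproterenol call remained after rescaling (adjusted p = 0.041). The amiodarone and lidocaine calls of Grn were also lost without control 2 or 3, amiodarone 1 or 2, or lidocaine 1 or 2 in their own comparison (0.053 to 0.18). Without the 4 libraries carrying other tissues the isoproterenol call of Grn was lost too (adjusted p = 0.084).

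Isoproterenol, which opposes the β-blockers at their receptors, was compared with the 5 anti-arrhythmic groups with the controls entering only the estimate of spread. It gave 2 higher genes, Ctsf and Mcoln1, and 4 lower genes, Ctsc, Smpd1, Scarb2 and Manba, of 34, against 9.51% higher and 13.3% lower among all tested genes. After rescaling the counts were 4 and 4, against 11.7% and 11.5%. Scarb2 was lower by 0.19 ± 0.05 (adjusted p = 0.019), a call lost without isoproterenol 1 or isoproterenol 3 (0.12 and 0.075). It was also lost without the 4 libraries carrying other tissues (0.12). The median over the set was -0.05.

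Several proteases varied widely within the control, metoprolol and lidocaine groups, and so did some markers of other cells. In controls 1, 2 and 3, Ctsk, the collagen-degrading cathepsin K, stood at 8.21, 39.36 and 56.03 FPKM, Ctsb at 249.48, 400.59 and 402.10 FPKM, and Ctsl at 100.86, 165.38 and 192.93 FPKM. Control 1 was below the other two each time, within the range of the drug libraries for Ctsb and Ctsl and just below it for Ctsk. Of the metoprolol libraries, replicate 3 stood out with 48.34 FPKM of Ctsk against 14.29 and 8.97 FPKM in the others, and of the lidocaine libraries replicate 1, with 24.83 FPKM against 8.38 and 9.99 FPKM. The macrophage and storage gene Gpnmb, which is not in the set, stood at 1.5, 41.88 and 105.77 FPKM in controls 1, 2 and 3, at 81.31 FPKM in metoprolol 3 and 40.19 FPKM in lidocaine 1. Cd68, a lysosomal membrane protein of macrophages, stood at 9.29, 30.26 and 39.94 FPKM in controls 1, 2 and 3, 29.20 FPKM in metoprolol 3 and 18.93 FPKM in lidocaine 1. Ivabradine 2 held more Gpnmb than control 2 or lidocaine 1, at 42.89 FPKM, and 19.66 FPKM of Ctsk. Gpnmb and Cd68 were picked after their values were seen, and other macrophage markers were ordered differently. Among the lidocaine libraries Csf1r was highest in replicate 3, at 17.59 FPKM against 14.6 FPKM in replicate 1, and Cx3cr1 stood at 7.15, 7.77 and 7.34 FPKM in controls 1, 2 and 3.

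**Figure D4:**
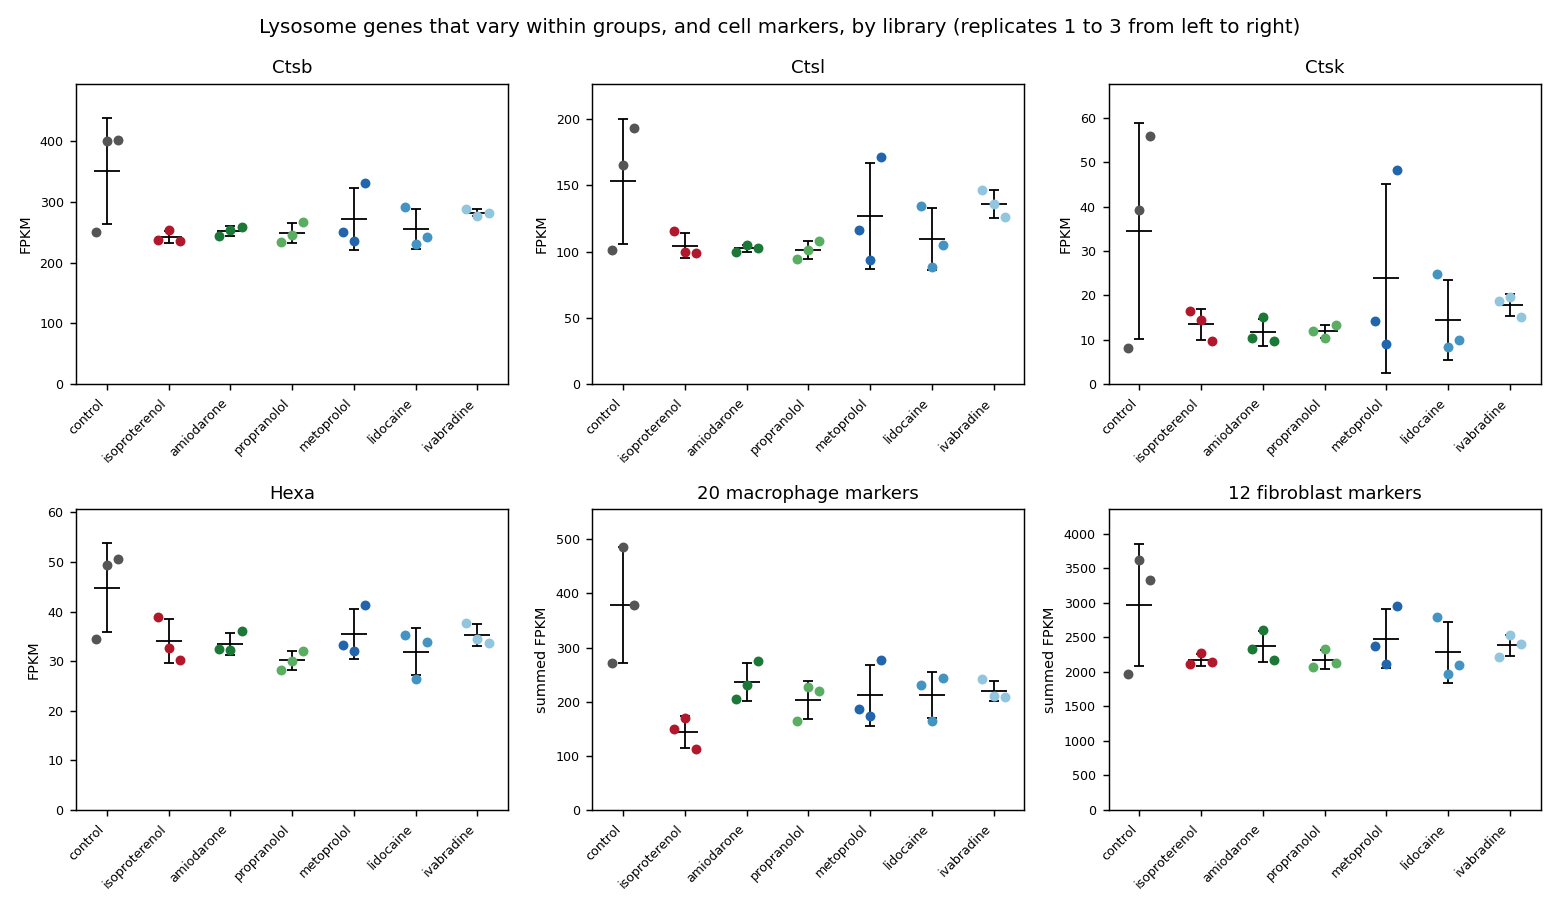
FPKM (y axis, from 0) of Ctsb, Ctsl, Ctsk and Hexa in each library, and the FPKM summed over 20 macrophage and 12 fibroblast markers, with bars for the mean and SD of 3 libraries. Control 1 is the lowest control in all 6 panels, and metoprolol 3 and lidocaine 1 are the highest of their groups for Ctsb, Ctsl and Ctsk.

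Part of the macrophage markers were lower with every drug. Of 18 tested, 16 were lower with isoproterenol, 6 with amiodarone, 13 with propranolol, 10 with metoprolol, 12 with lidocaine and 10 with ivabradine, and none was higher with any drug. These are 33.3% to 88.9% of the 18, against 19.1% to 26.6% of all tested genes. After rescaling the lower counts were 15, 2, 9, 9, 10 and 8, against 8.31% to 12.8% of all. The FPKM summed over the 20 markers ran from 272 to 486 in controls, 113 to 170 with isoproterenol, 205 to 274 with amiodarone, 164 to 228 with propranolol, 173 to 277 with metoprolol, 164 to 243 with lidocaine and 208 to 242 with ivabradine, and none of the markers was at 0 in any library. Csf1r, the receptor that maintains macrophages, was lower with propranolol (-0.70 ± 0.13) and isoproterenol (-1.06 ± 0.13). The fall was not particular to these drugs. Controls held 17.17, 20.84 and 21.09 FPKM of Csf1r, ivabradine libraries 12.96, 11.5 and 13.51 FPKM, and metoprolol libraries 13.61, 12.8 and 16.3 FPKM. Amiodarone libraries held 15.1, 15.86 and 17.94 FPKM and lidocaine libraries 14.6, 11.38 and 17.59 FPKM, both overlapping the controls. Fibroblast markers summed to 1963, 3626 and 3329 FPKM in controls 1, 2 and 3 and to 1972 to 2952 FPKM in the drug libraries. Of 12 such markers, 5 were lower with isoproterenol, 1 with amiodarone, 6 with propranolol, 1 with metoprolol, 4 with lidocaine and 1 with ivabradine, none was higher, and none was at 0 in any library. The shares ran from 8.33% with amiodarone, metoprolol and ivabradine to 50% with propranolol, against the same 19.1% to 26.6% of all tested genes. After rescaling the lower counts were 2, 1, 2, 1, 1 and 1 in that order, against 8.31% to 12.8% of all. With isoproterenol 1 was higher, against 17.3% of all. The part of these cells in the differences of lysosome genes from control was not tested. Between amiodarone and propranolol and the other 3 anti-arrhythmic drugs, 1 of 18 macrophage markers was higher and 0 lower, and 0 of 12 fibroblast markers passed (0 at an unadjusted p under 0.05).

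Other genes of the lysosomal system, taken from lists wider than the 34, were counted the same way. In amiodarone and propranolol against the other 3 anti-arrhythmic drugs, 0 genes passed among 29 further lysosomal enzymes (0 at an unadjusted p under 0.05), 25 further membrane proteins (3), 18 subunits of the proton pump V-ATPase (2), 23 genes of the TFEB family and of mTORC1 at the lysosome (3), 29 autophagy genes (6), 16 genes of sorting to the lysosome (2) and 24 of cholesterol synthesis and uptake (4). Against control, 8 of the 29 enzymes were lower with amiodarone, 10 with propranolol, 9 with isoproterenol, 8 with metoprolol, 10 with lidocaine and 5 with ivabradine, and none was higher. These are 17.2% to 34.5% of the list, against 19.1% to 26.6% of all tested genes. After rescaling 3, 3, 4, 5, 4 and 3 were lower in that order and 2, 0, 3, 1, 2 and 2 were higher, against 8.31% to 12.8% lower and 14.5% to 18.9% higher of all. Arsa, the arylsulfatase that degrades sulfatide, fell by 0.36 with amiodarone and 0.41 with propranolol, and Pla2g15, the lysosomal phospholipase that cationic amphiphilic drugs inhibit, fell by 0.55 and 0.61. All 4 of these calls remained after rescaling. Like the rest of the 29 enzymes, Arsa did not pass between amiodarone and propranolol and the 3 comparison drugs. Pla2g15 averaged 7.63 FPKM in controls, 4.80 FPKM with amiodarone, 4.58 FPKM with propranolol and 4.13 to 5.21 FPKM with the other 4 drugs, and its difference between amiodarone and propranolol and the 3 comparison drugs was 0.03 (adjusted p = 0.94).

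Of the 18 V-ATPase subunits, 5 were lower with each of amiodarone, propranolol, metoprolol and lidocaine (27.8%, against 19.8% to 26.6% of all tested genes), 8 with isoproterenol (44.4% against 25.8%) and 3 with ivabradine (16.7% against 19.1%), and none was higher. After rescaling 3 were lower with amiodarone, 1 with ivabradine and 2 with each other drug, and 1 was higher with isoproterenol, 2 with amiodarone, propranolol and metoprolol and 3 with lidocaine and ivabradine. Among all tested genes 8.31% to 12.8% were then lower and 14.5% to 18.9% higher. Tcirg1, a subunit of the membrane sector found in immune cells and osteoclasts, fell by 0.57 with amiodarone (adjusted p = 0.0014) and 0.89 with propranolol (adjusted p = 6.2e-05). Between amiodarone and propranolol and the comparison drugs 0 of the 18 subunits passed, Tcirg1 included, so its fall is not shown to be particular to them. Among the 23 TFEB and mTORC1 genes, 6 were higher and 5 lower with amiodarone, 4 and 4 with propranolol, 5 and 4 with isoproterenol, 6 and 4 with metoprolol, 6 and 5 with lidocaine and 2 and 2 with ivabradine. The shares higher were 8.7% to 26.1%, against 6.98% to 10.6% of all tested genes, and the shares lower 8.7% to 21.7%, against 19.1% to 26.6%. After rescaling the counts were 8 and 2 with amiodarone, 5 and 1 with propranolol, 8 and 0 with isoproterenol, 7 and 1 with metoprolol, 7 and 1 with lidocaine and 7 and 0 with ivabradine. Of all tested genes 14.5% to 18.9% were then higher and 8.31% to 12.8% lower. Rragd, a GTPase that couples amino acids to mTORC1 and is itself a TFEB target, was higher with amiodarone and propranolol (0.56 ± 0.09 and 0.48 ± 0.09). It averaged 15.5 ± 1.87 FPKM in controls (SD, n = 3), 23.2 ± 1.45 FPKM with amiodarone, 22.0 ± 3.17 FPKM with propranolol and 26.0 ± 1.28 FPKM with metoprolol. Between amiodarone and propranolol and the comparison drugs its difference was -0.10 (adjusted p = 0.53).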

How the data were processed

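Expression was measured by RNA sequencing of the heart apex in 21 libraries of 7 groups. Reads were made on a BGISEQ-500, and per the submitters' processing notes the tools were Bowtie2 2.2.5 and HISAT, with mm9 as the genome build. The counting tool and gene annotation are not given in the sources used here. The authors deposited FPKM values per gene, with no counts, so sequencing depth is unknown. Steps in 21 low genes put the relative depth of the libraries between 0.988 and 1.02 of each other. Genes entered only if their values lay within 0.12 of whole multiples of their smallest value. This choice favours near-equal depths, so larger differences in depth could have been missed. No value columns were left unmapped.

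Here log2(FPKM + 1) was computed from the deposited FPKM (pseudocount 1), and a gene was kept if 3 or more libraries reached 1 FPKM. The model had a mean for each group and used every library (limma 3.58.1 under R 4.3.3, variance trend, 14 residual degrees of freedom), with Benjamini-Hochberg adjustment over 12433 genes in each comparison and a threshold of 0.05. Tests are two-sided. With 3 libraries against 3, an exact permutation test of a single gene could not go below p = 0.1. In simulated data for amiodarone against control over 12433 genes, the fit recovered 34% of genes changed by 0.25, 72% by 0.5, 96% by 1 and 100% by 2 on the log2 scale, with 6 false calls among 12233 unchanged genes. The simulation drew independent normal noise for each gene, without spread shared by the genes of a library. It changed few genes, while the data gave 8.47% higher and 20.6% lower. These rates may therefore not hold in the data. The comparison of amiodarone and propranolol with the other anti-arrhythmic drugs was not simulated.

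Groups were taken from the labels. The numbers in the sample titles did not pair libraries across groups: correlations of their deviations from the group means ran from -0.54 to 0.29 (median -0.03) over 63 pairs, 12 of them over 0.1. Within groups, libraries correlated at 0.9935 to 0.9977 across genes, and no 2 were identical. The 34 genes, the other gene lists and the libraries left out for transcripts of other tissues were chosen with earlier results of these data known. Values per library are given for genes past the test of amiodarone and propranolol against the other 3 anti-arrhythmic drugs or of propranolol against metoprolol or amiodarone, the 8 of smallest p in the F test of 7 groups, Tfeb and Mcoln1, and up to 3 genes of smallest p are named from each other list. Csf1r, Cd68, Gpnmb and the genes of other tissues were named after their values were seen. Alternatives were a pseudocount of 0.1, no filter, median-of-ratios rescaling, no variance trend, a replicate block, other sets of comparison drugs and leaving out libraries. Promoters came from RefSeq (GRCm38.p6), with no entry used for Npc1, Asah1, Ctsb and Ctsh. A gene that this rule for naming selects is not reported here.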

Additional observations from a re-analysis of the deposited data

How the results depend on the processing

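Of the 62 calls of single genes, 61 were kept with a pseudocount of 0.1, 55 with no filter, 60 with no variance trend, 37 after median-of-ratios rescaling, 21 without the 4 libraries carrying other tissues (control 3, isoproterenol 3, amiodarone 2 and propranolol 1), 56 without control 1, 38 without control 2 and 36 without control 3, and none changed direction under these settings. With the replicate number as a block, 60 were kept, Npc1 with lidocaine (adjusted p = 0.06) and Idua with ivabradine (0.065) were lost, and the count of genes higher with amiodarone was 2 instead of 1. After rescaling, the counts of higher genes were 6 with isoproterenol, 5 with amiodarone, 4 with metoprolol, 2 with propranolol and 4 for isoproterenol against the anti-arrhythmic drugs, and the counts of lower genes were 7 with isoproterenol, 1 with amiodarone, 2 with metoprolol, 5 with propranolol, 3 with lidocaine and 1 with ivabradine. Without the 4 libraries, lower genes numbered 1 with isoproterenol, 0 with amiodarone, 1 with metoprolol, 3 with propranolol, 2 with lidocaine, 1 with ivabradine, 1 for isoproterenol against the anti-arrhythmic drugs and 0 for amiodarone and propranolol against the other 3 drugs, and the F tests called 4 genes over 7 groups and 0 over 5. With no filter, 1 gene was lower with ivabradine, and the F test over 5 groups called 0, as it did with no variance trend. Against the 4 other drugs, and for amiodarone alone, 0 genes were lower. Leaving out 1 library at a time, higher genes numbered 1 to 3 with isoproterenol, 1 to 2 with amiodarone, 0 to 3 with metoprolol, 1 with propranolol, 2 to 4 with lidocaine, 2 to 3 with ivabradine and 1 to 3 for isoproterenol against the anti-arrhythmic drugs. Lower genes numbered 5 to 17 with isoproterenol, 2 to 13 with amiodarone, 2 to 9 with metoprolol, 6 to 20 with propranolol, 2 to 17 with lidocaine, 1 to 11 with ivabradine, 0 to 1 for amiodarone and propranolol against the other 3 drugs and 1 to 5 for isoproterenol against the anti-arrhythmic drugs. The F tests called 6 to 17 genes over 7 groups and 0 to 1 over 5. Shares of all tested genes are not given for the fits that left libraries out. The cause of these changes was not tested. FPKM hold no counts, so no counting error can be given for the low genes Gla and Ctso.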

Other observations

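Autophagy genes, which are not among the 34, stood higher with isoproterenol than with the 5 anti-arrhythmic drugs: 13 of 29 were higher and 0 lower, where 9.51% of all tested genes were higher and 13.3% lower, and the counts were the same after rescaling. Their median difference was 0.10, against -0.01 over all tested genes. Atg14, a subunit of the lipid kinase complex that starts autophagosomes, was higher by 0.41 ± 0.07 (limma, adjusted p = 0.00049), Atg12, a ubiquitin-like protein of autophagosome growth, by 0.30 ± 0.05 (adjusted p = 0.00079), and Map1lc3a, which coats autophagosomes, by 0.36 ± 0.07 (adjusted p = 0.0015). Atg12 averaged 11.7 ± 1.07 FPKM (SD, n = 3) with isoproterenol and 11.8 ± 0.725 FPKM in controls, against 8.61 to 9.76 FPKM in the anti-arrhythmic groups. Map1lc3a averaged 614 ± 48.9 FPKM with isoproterenol and 497 ± 43.9 FPKM in controls. By these means the isoproterenol group stood above control for Map1lc3a and level with it for Atg12. Against control, 8 of the 29 autophagy genes were higher with isoproterenol and 0 lower, where 8.38% and 25.8% of all tested genes were. After rescaling the counts were 15 and 0, against 17.3% and 12% of all. Fits that left libraries out are not given for the autophagy genes.

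Genes of cholesterol synthesis and uptake stood the other way, with 1 of 24 higher and 10 lower with isoproterenol than with the 5 anti-arrhythmic drugs, unchanged in number after rescaling. Of all tested genes 9.51% were higher and 13.3% lower, and 11.7% and 11.5% after rescaling. Summed over the list, the group means were 164 FPKM with isoproterenol, 182 FPKM in controls and 182 to 195 FPKM in the anti-arrhythmic groups. Insig1, which holds back cholesterol synthesis in the endoplasmic reticulum, was lower by 0.42 ± 0.06 (limma, adjusted p = 0.00017). Hmgcs1, an early enzyme of the pathway, was lower by 0.33 ± 0.06 (limma, adjusted p = 0.00046). Between amiodarone and propranolol and the other 3 anti-arrhythmic drugs, 0 of 24 of these genes passed (4 at an unadjusted p under 0.05).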
